A study of Drosophila melanogaster with 6 samples.

Results

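The transcripts described here are the RefSeq messenger RNAs on a Drosophila expression array, that is, the array's probes whose identifier is a curated RefSeq mRNA accession and not a FlyBase transcript, a cDNA clone or an expressed sequence cluster. All non-control probes with such an identifier were taken, apart from 2 probes for Fatp3. This gave 164 probes for 147 transcripts, out of 32162 probes for 25888 identifiers on the whole array. The gene table named 89 of the 164 probes, which stood for 85 transcripts and 84 gene symbols. The other 75 probes, for 62 transcripts, carry an accession that the table does not list, and are given by accession or in counts.

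Total RNA was measured from heads of adult flies of 2 genotypes, 3 arrays each, with 1 independently prepared RNA sample per array. The mutant, Top3b26, carries an allele of the topoisomerase gene Top3b made by remobilizing a P-element, and is labelled with the w1118 strain background. The control, WT, is the w1118 stock, wild type for Top3b, and the question was which head transcripts differ between the genotypes. Both genotypes come from a single stock each, so the allele and any other difference between the stocks cannot be told apart, and whole heads hold neurons, glia, eye, fat body and muscle, in which fewer cells of a type and less RNA per cell cannot be told apart.

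Topoisomerase 3-beta is a type IA topoisomerase, an enzyme that passes single strands of nucleic acid through one another, and it acts on RNA as well as DNA. In flies it works with the RNA interference machinery in forming heterochromatin, the compact chromatin near centromeres and telomeres that keeps genes and transposons silent. The RefSeq mRNAs on this array were not chosen for that pathway: they include histones, ribosomal proteins, mitochondrial subunits, enzymes, receptors and many uncharacterised genes.

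Levels are log2 signals that were z-transformed within each array and scaled back by 3.89, the SD averaged over the 6 arrays, so that 0 is the mean of an array and a step of 1 is close to a doubling of signal. Different probes bind with different strength, so levels were compared between arrays for the same probe and not between genes. Median non-control signals were 769, 279 and 1600 on Top3b26 1 to 3 and 491, 461 and 1050 on WT 1 to 3. The arrays lay on 2 slides, the first with Top3b26 1, WT 1 and WT 2, and the second with Top3b26 2, Top3b26 3 and WT 3. Top3b26 2 was the dimmest array. Among the RefSeq mRNA probes with a gene name, none was for a neuronal, photoreceptor or other cell type marker, or for Top3b itself. The 75 probes without a gene name could not be looked up. Neither the tissue nor the genotype label could therefore be checked within these transcripts.

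A probe was taken as detected on an array when the scanner software flagged over 50% of its spots as well above background. Of the 164 RefSeq mRNA probes, 118, 99 and 118 were detected on Top3b26 1 to 3, and 113, 101 and 114 on WT 1 to 3. The lowest count in each genotype belonged to Top3b26 2 and WT 2. On all 3 Top3b26 arrays 92 probes were detected, and on all 3 WT arrays 98 were. Both genotypes had all their arrays detected for 85 probes, or 51.8%, against 63.1% of the other probes on the array. A further 7 probes were detected on all 3 arrays of Top3b26 only and 13 on all 3 arrays of WT only. In 12 of those 13 the probe was still detected on 2 Top3b26 arrays, and each of the 7 was still detected on 2 WT arrays. The remaining 1 probe of the 13, for NM_001110877, was detected on 0 Top3b26 arrays and on all 3 WT arrays.

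No array detected 39 of the probes (23.8%, against 15.4% of the other probes), and 20 were detected on some arrays but not on all 3 of either genotype. The undetected genes include Poxm and unc-4, transcription factors of muscle and motor neuron development, Buffy, a Bcl-2 family protein, Fen1, the flap endonuclease of DNA replication, and Prosalpha3T, a testis form of a proteasome subunit. ATPCL, which makes cytosolic acetyl-CoA, and sun, the epsilon subunit of the mitochondrial ATP synthase, were also not detected by their RefSeq mRNA probes. These genes were named for their known roles. A probe that is not above background says only that its signal was too low to measure on these arrays.

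**Figure D1:**
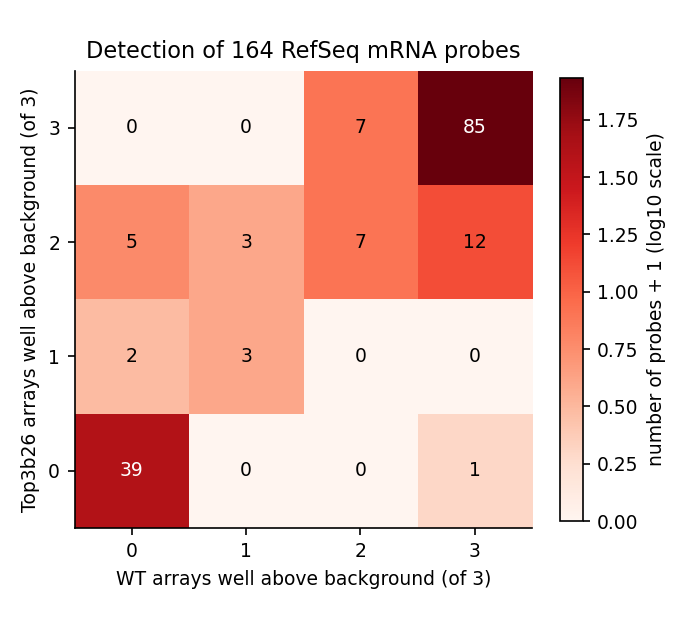
Number of RefSeq mRNA probes by the number of Top3b26 arrays (vertical axis) and WT arrays (horizontal axis) on which they were well above background, with colour on a log10 scale. The corner with all arrays of both genotypes holds 85 probes, the corner with none holds 39, and 1 probe was detected on no Top3b26 array and on all 3 WT arrays.

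The 105 probes detected on all 3 arrays of at least 1 genotype were tested for a difference between genotypes. They make up 64.0% of the RefSeq mRNA probes, against 71.6% of the other probes, and stand for 93 transcripts, with 54 of the probes named. Entering the test required detection, so the counts that follow hold for these 105 probes and not for all 164. With limma, and Benjamini-Hochberg adjustment over all 23013 tested probes of the array, 3 of the 105 (2.86%) passed an adjusted p threshold of 0.05 and are referred to as called, where 0.882% of all tested probes were called. Of the 3, 1 RefSeq mRNA rose in Top3b26 (0.169% of all tested probes were called higher) and 2 fell (0.713% were called lower). The call of NM_001110877, among those that fell, rests on Top3b26 values below background.

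The transcript that rose was NM_131935, which has no gene name in the table. Its levels were 1.25, 1.89 and 0.88 on Top3b26 1 to 3, against -2.98, -2.59 and -3.24 on WT 1 to 3. All 3 Top3b26 arrays were above 0 and all 3 WT arrays far below it, with no overlap. The difference was 4.28 ± 0.34 (SE), about 19.4-fold on this scale, with a limma adjusted p of 0.00946. It was 4.03 within the first slide and 4.63 within the second.

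Nepl4 fell in Top3b26. It belongs to the neprilysin-like proteins, a family related to the zinc metallopeptidases that cut peptides at the cell surface. Its levels were 0.82, 0.82 and 1.54 in Top3b26, against 4.39, 3.74 and 4.55 in WT. The highest Top3b26 array stood well below the lowest WT array. The difference was -3.16 ± 0.34 (SE), or 8.94-fold lower on this scale, with a limma adjusted p of 0.0199. The values within the slides were -3.24 and -3.36. A second member of the family, Nepl7, was detected on 1 array of each genotype and was not tested.

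The other transcript that fell was NM_001110877, which has no gene name in the table and whose probe is printed on 10 spots. It had levels of -5.56, -5.35 and -6.64 in Top3b26, none of them above background, against -2.56, -2.74 and -2.58 in WT, all of them above background. Its level in Top3b26 has only a bound, set per array at the lowest level of any probe well above background, or at the probe's own level where that was higher. On that basis it was at least 2.8-fold lower in Top3b26 on this scale. The bound depends on that limit, and some probes not above background read higher than it. CG14309, detected on no array, read -3.84 and -3.77 on Top3b26 1 and 3. NM_001110877 entered the test through its WT arrays alone. Its Top3b26 values lay under the lowest level of any detected probe, which was -4.42, -3.33 and -4.6 on Top3b26 1 to 3. The fit took these values as they stood and gave -3.22 ± 0.38 (SE), where limma put the adjusted p at 0.0276. That size, SE and p rest on values too low to measure, and only the bound, under the limit chosen, can be read. The values within the slides, -2.91 and -3.42, used the same Top3b26 levels below background.

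The calls depended on single arrays, on the background correction and on how the slide was treated. With normexp background correction the differences were 2.47 for NM_131935, -2.73 for Nepl4 and -0.81 for NM_001110877. Their limma adjusted p were 0.0882, 0.0613 and 0.966, so none was called. The normexp difference of NM_001110877 was smaller in size than its bound, which is 1.49 on the log2 scale. When the slide was fitted as a block, the limma adjusted p was 0.0592 for NM_131935, 0.0811 for Nepl4 and 0.132 for NM_001110877, with differences of 4.33, -3.3 and -3.16, so none was called. None of the 3 was called when Top3b26 1 or any 1 of the WT arrays was left out. All were called without Top3b26 2 or without Top3b26 3. With 1 array left out, the difference lay between 3.98 and 4.51 for NM_131935 and between -3.41 and -3 for Nepl4. In each of these runs NM_001110877 had only Top3b26 values below background.

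**Figure D2:**
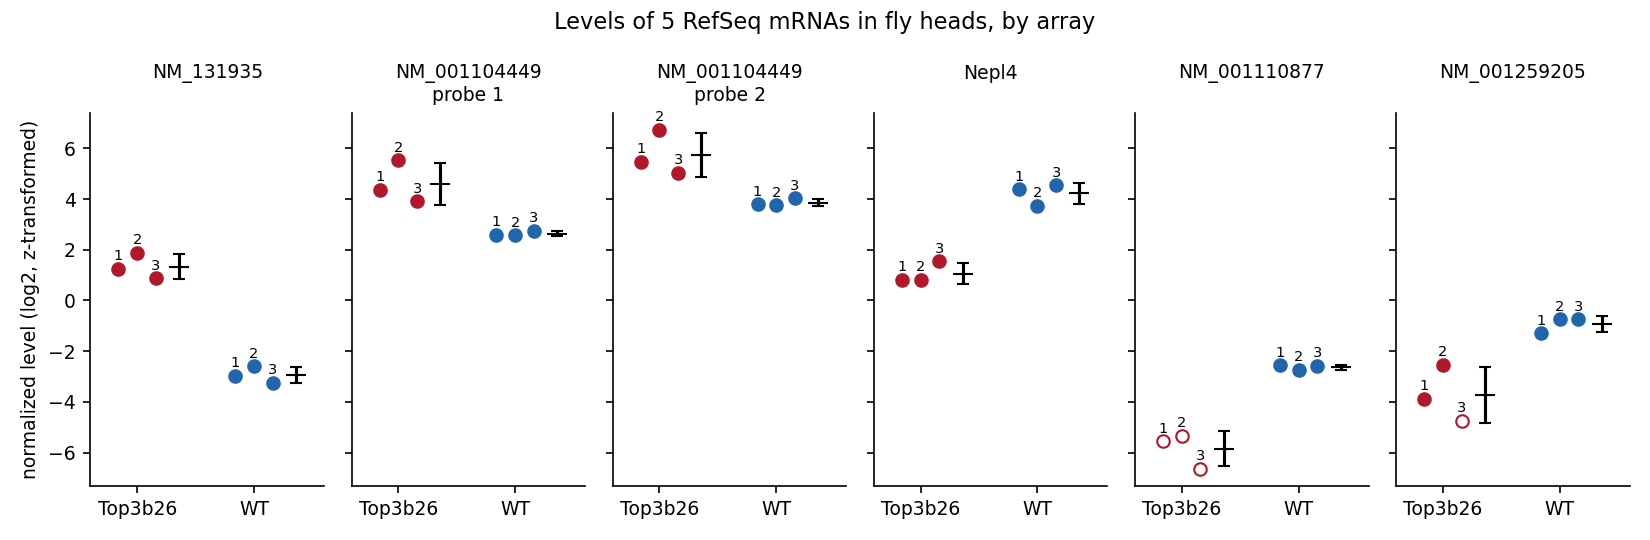
Levels of 5 RefSeq mRNAs (6 probes) by array, on the z-transformed log2 scale, with Top3b26 in red at the left of each panel and WT in blue at the right. Numbers give the replicate, open circles mark arrays where the probe was not well above background, and bars give mean and SD over 3 arrays. NM_131935, Nepl4 and NM_001110877 are the 3 called transcripts, and the genotypes do not overlap in any panel.

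Among other limits, the study's methods used a false discovery rate of 0.3 and a fold change of 1.5. Their limits on the z-test p, an analysis of variance p and the mean signal of each group were not applied here. The probes counted need not meet all of the study's limits. On the fit used here, 10 of the 105 probes (9.52%) passed the false discovery rate and fold change, 5 higher and 5 lower in Top3b26. Of all tested probes 6.07% did (1.69% higher and 4.38% lower). The count was unstable: leaving out 1 array gave between 3 (without WT 2) and 66 (without Top3b26 2), and a slide block or normexp gave 4 each. The shares of all tested probes in those runs are not given, so these counts cannot be set against the 6.07%. Besides the 3 calls they include both probes for NM_001104449, which has no gene name in the table. Its first probe read 4.36, 5.53 and 3.92 in Top3b26, against 2.6, 2.58 and 2.74 in WT. Its second probe read 5.48, 6.73 and 5.04 in Top3b26, against 3.79, 3.76 and 4.03 in WT. In both probes Top3b26 2 was the highest array and the genotypes were apart. The differences were 1.97 ± 0.44 and 1.89 ± 0.46 (SE), with limma adjusted p of 0.152 and 0.182.

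Among the lower ones was NM_001259205, also without a gene name. It had levels of -3.87, -2.54 and -4.75 in Top3b26, with Top3b26 3 not above background, against -1.3, -0.74 and -0.74 in WT. The difference was -2.8 ± 0.58 (SE), with a limma adjusted p of 0.132, and -2.85 and -2.91 within the slides. The fitted difference and the one within the second slide used the Top3b26 3 value below background. RpL30, a protein of the large ribosomal subunit, read 1.28, 1.54 and 1.16 in Top3b26, against 2.21, 1.85 and 2.24 in WT, and differed by -0.77 ± 0.22 (SE) with a limma adjusted p of 0.263. Probes of 2 unnamed transcripts, with differences of 1.26 and -0.8, also passed.

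**Figure D3:**
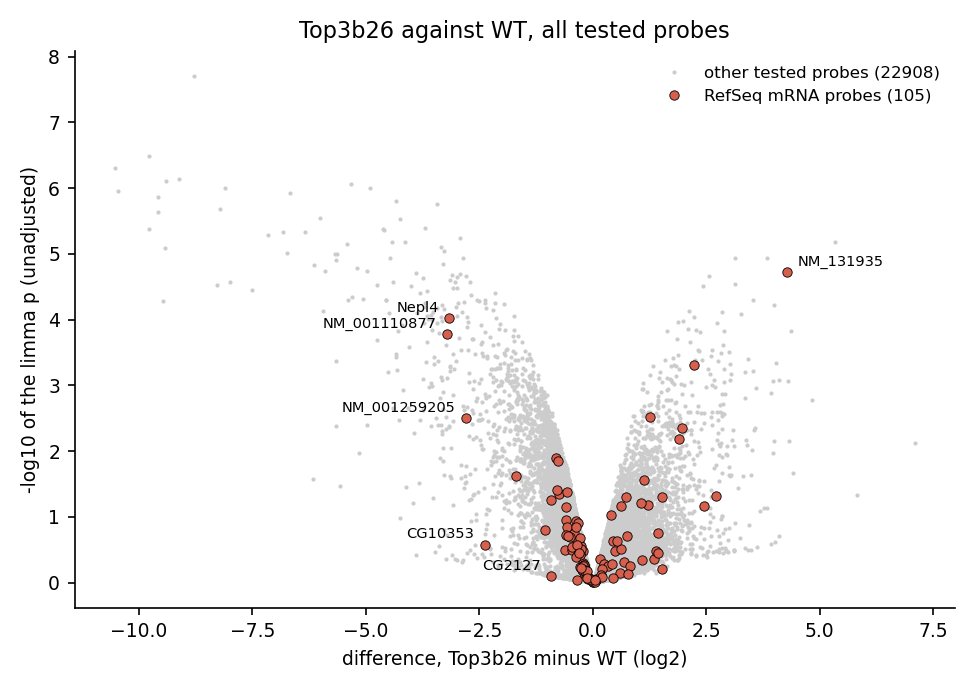
Difference between Top3b26 and WT (horizontal axis, log2) against -log10 of the unadjusted limma p (vertical axis) for the 105 tested RefSeq mRNA probes in red and all other tested probes in grey. NM_131935 stands alone on the right, Nepl4 and NM_001110877 on the left, and CG2127 and CG10353 are probes in which 1 Top3b26 array stood far from the other two.

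Most RefSeq mRNAs differed little. The difference was under 1 in size for 82 of the 105 probes (78.1%), against 88.5% of all tested probes. It was negative for 61 and positive for 44, with a median of -0.17, beside a median of -0.15 over all tested probes. When each array was scaled by its median difference from the others in place of the z-transformation, the medians were 0.01 and 0.03 and 51 of the 105 differences were negative. Before adjustment, 17 probes had a p under 0.05 (8 higher, 9 lower, 16.2%, against 11.2% of all tested probes). In 24 probes (11 higher, 13 lower, 22.9%) the genotypes did not overlap, where 19.8% of all tested probes had no overlap. Under the median-difference scaling 27 did not overlap, and the share of all tested probes under that scaling is not given.

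The Top3b26 arrays varied more among themselves than the WT arrays. The median SD of the tested RefSeq mRNA probes was 0.65 over the Top3b26 arrays and 0.263 over the WT arrays. Over all tested probes these medians were 0.539 and 0.226.

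Among the named genes detected on all 6 arrays, a few more had genotypes that did not overlap, though none of them passed the test. Alr, a sulfhydryl oxidase that forms disulfide bonds in mitochondria, read 4, 4.75 and 4 in Top3b26, against 3.72, 3.53 and 3.66 in WT, with a difference of 0.61 ± 0.27 (SE, limma adjusted p = 0.503). CG8728 read 4.83, 5.03 and 5.25 in Top3b26, against 4.64, 4.63 and 4.61 in WT, a difference of 0.41 ± 0.2. For TrpRS, the tryptophanyl-tRNA synthetase, and a ubiquitin-specific protease gene (NM_137099), the differences were 0.44 ± 0.33 and 0.15 ± 0.18. TrpRS was set apart mainly by Top3b26 2, at 2.87, while its other Top3b26 arrays were at 1.92 and 1.86. Its WT arrays read 1.65, 1.83 and 1.86, so the genotypes were barely apart.

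On the lower side, CG14687 read 3.78, 4.11 and 3.21 in Top3b26, against 4.29, 4.5 and 4.65 in WT, a difference of -0.78 ± 0.29 (SE, limma adjusted p = 0.403). CG8635 had 4.59, 4.74 and 4.61 in Top3b26, against 4.95, 4.95 and 5.01 in WT. Its arrays were close to each other within each genotype, and its difference was -0.32 ± 0.18 (SE, limma adjusted p = 0.608). CG8818 and ATPsynG, a subunit of the membrane part of the mitochondrial ATP synthase, both differed by -0.36, with SE of 0.2 and 0.21. Under the median-difference scaling these differences were -0.59 for CG14687, -0.13 for CG8635, -0.17 for CG8818 and -0.18 for ATPsynG.

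Signal depends on the probe and does not rank the genes, but the 5 named probes with the highest mean level over the arrays were those for RpS14b, CG5214, BomS6, Cpr49Ag and CG8818, and none of them was called. RpS14b, a protein of the small ribosomal subunit, read 6.3, 6.57 and 5.68 in Top3b26, against 6.47, 6.72 and 6.42 in WT. BomS6 is a Bomanin, a short secreted peptide induced by the Toll immune pathway. It read 5.75, 6.35 and 5.34 in Top3b26, against 6, 5.97 and 6.06 in WT. Cpr49Ag, a cuticle protein, read 5.86, 5.85 and 4.87 in Top3b26, against 5.72, 5.88 and 5.59 in WT. In each of these 3 the lowest array was Top3b26 3 and the genotypes overlapped. CG5214 differed by -0.29 ± 0.21 (SE).

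Few RefSeq mRNAs fell on each of the gene lists. The protease list held Nepl4 and Nepl7, the immune list BomS6 and the cuticle list Cpr49Ag. All 3 ribosomal protein probes, for RpL30, RpS14b and RpS7, had negative differences with a median of -0.35 (-0.16 under the median-difference scaling) and 0 were called. RpS7 was weak in both genotypes, at -4.01, -2.39 and -3.7 in Top3b26, against -3.15, -3.24 and -2.88 in WT. All 3 Top3b26 arrays and 2 of 3 WT arrays detected it. The 2 mitochondrial complex probes, ATPsynG and ND-B17, a subunit of complex I, had a median difference of -0.24 (-0.06 under the median-difference scaling), and 0 were called. Both medians stand beside one of -0.15 for all probes tested. The lists of chemoreceptors, detoxification enzymes, heat shock proteins, reproductive gland genes, neuronal signalling genes and transcription factors had no RefSeq mRNA with a gene name. The list of lipid and sugar metabolism had none either, Fatp3 having been left out.

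Histones package DNA into nucleosomes, and the replication-coupled histone genes of the fly lie in a repeated cluster whose copies are nearly identical, so a probe named for 1 copy can read the others. His3.3B encodes a histone variant made outside DNA replication. Of 6 histone probes 5 were tested and 0 were called. The differences were positive for 4 and negative for 1, with a median of 1.06 (1.23 under the median-difference scaling), beside -0.15 for all tested probes.

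His2A:CG33808 read -1.43, -0.78 and -0.06 in Top3b26, against -2.39, -1.82 and -1.26 in WT. The WT array with the highest level lay between the Top3b26 arrays, so the genotypes overlapped, and the difference was 1.06 ± 0.46 (SE, limma adjusted p = 0.482). The H2B probe His2B:CG33888 read -2.01, -1.14 and -1.04 in Top3b26, against -1.86, -2.34 and -3.63 in WT, with a difference of 1.22 ± 0.54 (SE, limma adjusted p = 0.496). The other H2B probe, His2B:CG33876, read -1.97, -1.51 and -1.11 in Top3b26, against -1.95, -2.95 and -4.29 in WT. Its difference was 1.53 ± 0.62 (SE, limma adjusted p = 0.449), which used a WT 3 value below background. In both H2B probes WT 3 was the lowest array, and it is the only WT array of the second slide. For His2B:CG33888 the difference was 0.09 within the first slide and 2.55 within the second. For His2B:CG33876 it was 0.48 within the first slide and 2.98 within the second, where the probe was not above background on WT 3.

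The H4 probe His4:CG33899 had another pattern. Its levels were 4.76, 1.66 and 4.97 in Top3b26, against 3.22, 2.5 and 3.57 in WT, so Top3b26 held both the highest arrays and the lowest, and the difference was 0.7 ± 0.94 (SE, limma adjusted p = 0.851). The H4 probe His4:CG33907 was not detected on any array. His3.3B read -0.61, 1.2 and -1.27 in Top3b26, against -0.19, -0.03 and -0.09 in WT. Its WT arrays were nearly equal while its Top3b26 arrays lay on both sides of them, with a difference of -0.12 ± 0.64 (SE).

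**Figure D4:**
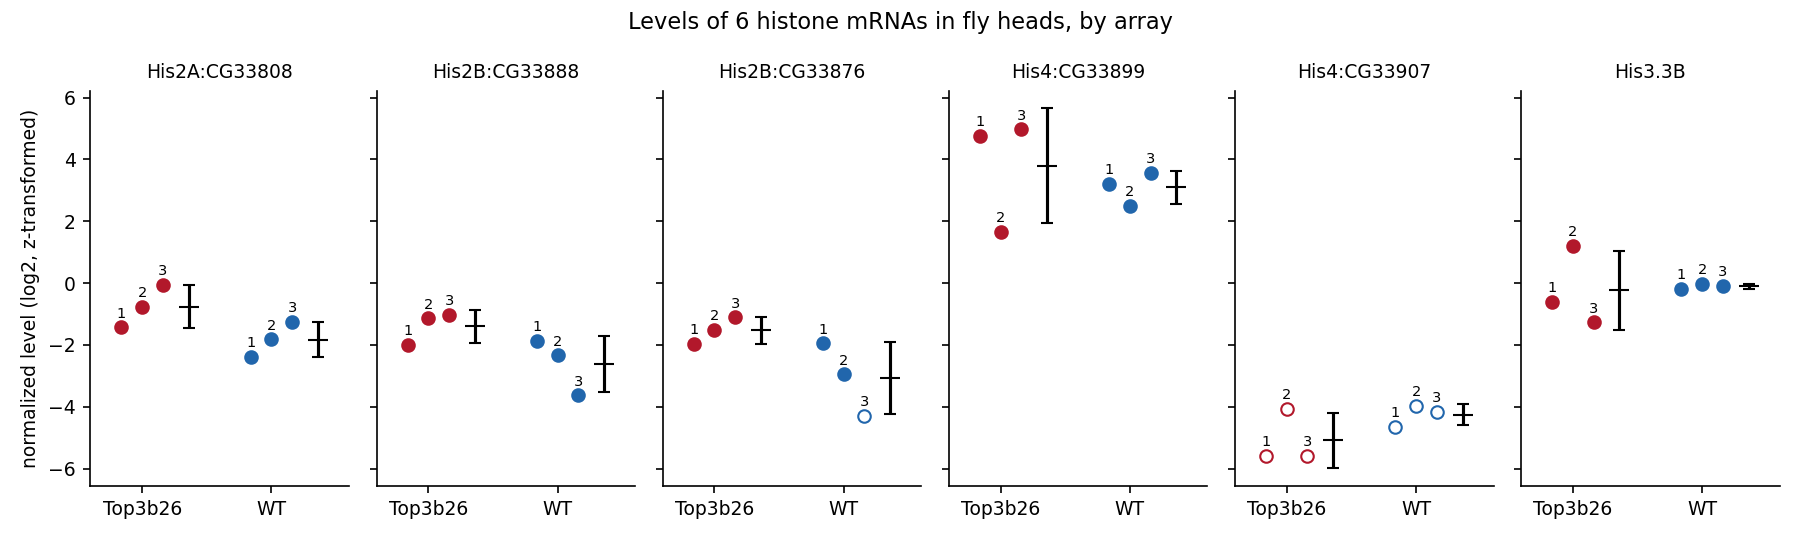
Levels of the 6 histone probes by array on the z-transformed log2 scale, Top3b26 in red at the left and WT in blue at the right of each panel, with replicate numbers, open circles where the probe was not well above background, and mean and SD over 3 arrays. The genotypes overlap in all 6 panels, and none of the 5 tested probes was called.

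Several genes with established roles in signalling and cell biology were also measured on every array, and are given here for those roles, not for their values. For sei, which encodes an ERG potassium channel needed for normal nerve excitability at high temperature, the levels were 4.06, 4.38 and 3.23 in Top3b26, against 4.01, 4.43 and 4.24 in WT. The phosphatase gene puc, a target and inhibitor of JNK signalling, read 3.98, 4.13 and 3.18 in Top3b26, against 3.65, 3.89 and 3.86 in WT. Dad, the inhibitory Smad of BMP signalling, read 2.72, 3.51 and 2.52 in Top3b26, against 3.08, 3.22 and 3.02 in WT. In these 3 genes the lowest array was Top3b26 3 and the genotypes overlapped. Their differences were -0.33 ± 0.35, -0.04 ± 0.31 and -0.2 ± 0.31 (SE).

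Hsl, a hormone-sensitive lipase of fat stores, read 3.43, 3.75 and 3.19 in Top3b26, against 3.86, 3.51 and 3.76 in WT (difference -0.26 ± 0.24). Rae1, an mRNA export factor, read 3.34, 3.76 and 3.31 in Top3b26, against 3.62, 3.69 and 3.79 in WT (difference -0.23 ± 0.22). Rrp42, a subunit of the RNA exosome, and Mnt, a transcriptional repressor of the Myc network, had differences of -0.26 ± 0.23 and -0.17 ± 0.4. Cap-D3, a subunit of condensin, differed by -0.22 ± 0.31 and fs(1)K10, needed for the polarity of the egg, by -0.27 ± 0.23. None of these 9 genes passed the test, with limma adjusted p between 0.745 and 0.983.

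Some RefSeq mRNA probes had wide ranges among the Top3b26 arrays. Of the 125 probes detected on at least 1 array, 26 had their highest and lowest Top3b26 array more than 3 apart on the log2 scale, a limit set with earlier results of these data known. Among detected probes, the one just inside it had a range of 3.15 and the one just outside a range of 3. A further 3 probes that no array detected also had a range over 3, with Top3b26 2 highest and Top3b26 3 lowest in all 3, at signals below the level that could be measured. In 25 of the 26 the order was the same, with Top3b26 3 highest, Top3b26 1 between and Top3b26 2 lowest. These 25 probes stand for 22 transcripts, 18 of them are named probes, and 15 were tested, of which 0 were called. Among the tested RefSeq mRNA probes 15.2% had a range over the limit, against 9.82% of all tested probes. In many of the 26 the lowest Top3b26 level was below background, so the full range was not measured.

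CG2127 had the widest range, at 11.88. Its levels were 5.47, -5.56 and 6.32 in Top3b26, against 4.96, 1.31 and 2.72 in WT. It was well above background on 2 Top3b26 arrays and at the floor of Top3b26 2. The gene exu, whose product carries bicoid mRNA to the front of the egg and which also has a male germline transcript, followed with a range of 11.06. It read 4.21, -5.51 and 5.56 in Top3b26, against 3.33, 0.39 and 1.56 in WT. Both genes had WT 1 as their highest WT array and WT 2 as the lowest. The differences between genotypes were -0.92 ± 3.3 for CG2127 and -0.34 ± 2.98 for exu (SE). Neither gene was above background on Top3b26 2, so the sizes of these ranges and differences are not measured.

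The same order held for CG15200, with 1.92, -5.4 and 3.41 in Top3b26, against 1.24, -1.78 and -0.85 in WT, and for both probes of CG11298. Of these, the tested one read 1.3, -5.49 and 2.82 in Top3b26, against 0.94, -3.2 and -1.48 in WT, and the other read 1.17, -5.12 and 2.66 in Top3b26, against 0.96, -3.39 and -1.61 in WT. LS2, a splicing factor derived from the large subunit of U2AF and expressed mainly in testis, read -0.89, -5.38 and 1.09 in Top3b26, against -2.03, -2.01 and -2.94 in WT. For ttm3, a relative of the mitochondrial import protein Tim50, the levels were 1.44, -5.34 and 2.89 in Top3b26, against 0.87, -2.11 and -1.49 in WT. CG31910 read 2.5, -4.9 and 4.08 in Top3b26, against -1.94 and -0.02 on WT 2 and WT 3. Its WT 1 spot was left out as an outlier. None of these probes, from CG15200 to CG31910, was above background on Top3b26 2.

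The WT arrays moved too, to a smaller degree. Of the 25 probes 22 had a range over 1 among the WT arrays, and in 17 WT 1 was the highest WT array and WT 2 the lowest. The 80 tested probes that are named for cDNA clones of an adult testis library had the same order of arrays, with median levels of 0.94, -1.7 and 1.94 on Top3b26 1 to 3 and 0.28, -1 and -0.61 on WT 1 to 3. The brightness of the arrays had part of this order, with median signals of 1600 on Top3b26 3 and 279 on Top3b26 2. The part of either in the levels of these RefSeq mRNAs was not tested.

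CG10353 ran the other way. It read -0.12, 0.85 and -6.53 in Top3b26, against 0.01, 0.67 and 0.66 in WT, and so was close to WT on Top3b26 1 and 2 and near the floor on Top3b26 3. The probe has a single spot, and the difference between genotypes was -2.38 ± 1.94 (SE, limma adjusted p = 0.738). That difference used the Top3b26 3 value, which was not above background.

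Among named probes detected on all 6 arrays, CG2871 and CG18371 had the widest ranges over the Top3b26 arrays and were among the widest over WT. CG2871 read 0.89, -2.19 and 2.95 in Top3b26, against 0.48, -0.82 and -0.46 in WT. CG18371 read -0.14, -2.35 and 1.12 in Top3b26, against -1.1, -2.6 and -1.99 in WT. Both had Top3b26 2 lowest. The gene r, which encodes the first enzymes of pyrimidine synthesis in 1 protein, instead had Top3b26 1 highest, with -0.56, -2.69 and -3.17 in Top3b26, against -2.2, -2.26 and -1.61 in WT, while its other probe was not detected. For sick, an actin regulator, Top3b26 2 and WT 2 were the highest arrays of their genotypes, at 2.43 and 2.06.

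**Figure D5:**
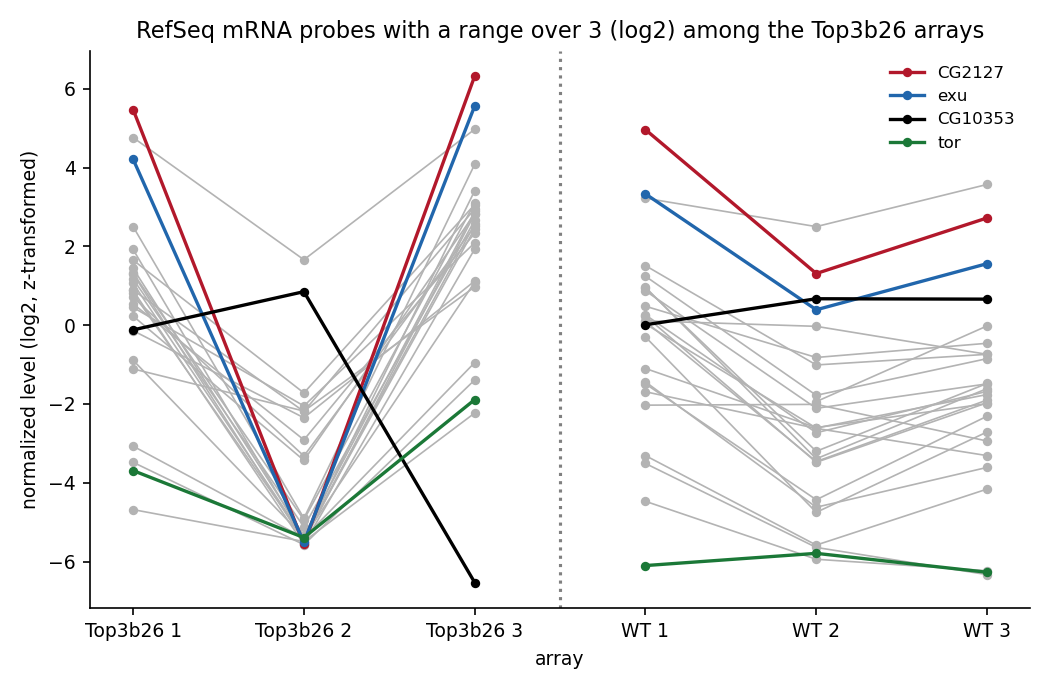
Levels of the 26 RefSeq mRNA probes detected on at least 1 array whose Top3b26 arrays span more than 3 on the log2 scale, by array, with Top3b26 at the left and WT at the right and a line joining the arrays of each genotype for each probe. Top3b26 2 is the lowest and Top3b26 3 the highest Top3b26 array in 25 of the 26 probes, shown by CG2127 in red, exu in blue and tor in green, and CG10353 in black runs the other way.

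Different probes of a transcript can show how far a difference depends on the probe. Of 14 RefSeq mRNAs with over 1 probe, 9 had over 1 tested probe. In 6 of the 9 all probes had the same sign, and in 6 the differences lay within 0.5 of each other. Both probes of Atg10, which encodes an E2-like enzyme of autophagy, gave differences of -0.32 and -0.29. The widest disagreement was 1.75, in an unnamed transcript whose 2 probes gave -0.36 and 1.39. NM_131935, Nepl4 and NM_001110877 had 1 probe each.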

How the data were processed

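Adult head RNA was labelled with Cy3 and hybridised to 1-colour Agilent arrays, 3 for Top3b26 and 3 for WT, with groups and replicate numbers taken from the sample labels. Per the file headers, Feature Extraction 11.5.1.1 made the deposited intensity values by subtracting the background and removing spatial trends. The deposited score values are the authors' z-scores of log signal within each array, and matched z-scores recomputed from the intensities to within 0.00502. Here log2 processed signals were z-transformed over the 43602 non-control spots of each array, outlier spots were left out (16 values among the RefSeq mRNAs), 0 member spots were saturated, and spots of a probe were averaged. Probes detected on all 3 arrays of Top3b26 or of WT were tested with limma 3.58.1 in R 4.3.3 (lmFit and eBayes, no covariate), with Benjamini-Hochberg adjustment over 23013 probes. A plain 2-group test stood in for the methods' own test.

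Gene names came from a RefSeq gene table matched on accession. The files cite another genome release, so no coordinates are given, and no sequences were used here. Named genes were those called, those with the largest differences among non-overlapping genes, those detected in 1 genotype only, the 5 with the highest mean level, the 5 with the widest range in each genotype, and those on the gene lists. Other genes were named for their roles or after their values were seen, and 1 gene is not reported here. The telomeric gene CG12483, also in the rule, is not among the RefSeq mRNAs with a gene name. No list of neuronal, fat body, testis, ovary, accessory gland, gut or muscle markers had a member with a gene name. The members and lists were chosen with earlier results of these data known.

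Alternatives were other scalings, background correction, filters on dim probes, the deposited scores, a variance trend, the slide or the replicate number as a block, and each array left out. The normexp correction used median spot signals with an offset of 50, in place of mean spot signals. The 3 arrays per genotype limit the precision.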

Additional observations from a re-analysis of the deposited data

Results flagged for a closer look

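A handful of RefSeq mRNA probes outside the tested set were well above background on 2 Top3b26 arrays and on 0 WT arrays. Their differences of group means were 2.07 for CG34216, 2.40 for tor, 0.73 for 1 of the 2 probes of Mccc1, 1.32 for NM_001038833 and 1.18 for 1 of the 2 probes of NM_001104287. They were not tested for a difference, because no genotype had all 3 arrays above background. All their WT values and 1 Top3b26 value of each were below background, so the differences are not measured sizes. The probes were picked for detection in Top3b26 alone, so a higher mean there follows largely from that choice. The other Mccc1 probe, not tested, differed by -0.33 and was detected on WT 3. The other NM_001104287 probe was detected on 2 WT arrays and differed by 0.48 ± 0.46 (SE, limma adjusted p = 0.774). The receptor tyrosine kinase gene tor, which patterns the ends of the embryo, read -3.69, -5.39 and -1.89 in Top3b26, against -6.1, -5.79 and -6.27 in WT. CG34216 read -3.48, -5.57 and -1.39 in Top3b26, against -4.47, -5.94 and -6.23 in WT. Both genes, and NM_001038833, were detected on Top3b26 1 and Top3b26 3 and not on Top3b26 2. The flagged probe of Mccc1, a subunit of the carboxylase that breaks down leucine, read -3.77, -1.72 and -4.56 in Top3b26. In WT it read -4.33, -4.17 and -3.73, so its 2 genotypes overlapped.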

How the results depend on the processing

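The number of RefSeq mRNA probes called was 3. It was 5 with a 75th percentile shift, 7 with median-difference scaling, and 0 with normexp background correction, with a slide block and with the plain 2-group test after Benjamini-Hochberg adjustment, which gave 14 at an unadjusted p. Leaving out 1 array gave between 0 and 5 calls: 5 without Top3b26 2, 3 without Top3b26 3 and 0 without any 1 of the other 4 arrays. The number past the methods' false discovery rate and fold change was 10. It became 16 with the 75th percentile shift and with median-difference scaling, 4 with normexp and with a slide block, and 28 with the plain test unadjusted. Leaving out 1 array gave between 3 (without WT 2) and 66 (without Top3b26 2). The counts under the alternatives are given without the shares of all tested probes in the same runs. They therefore do not set these mRNAs apart from the rest of the array. Probes detected in 1 genotype only numbered 1, and 6 when 2 of 3 arrays sufficed. No named gene that was called changed sign under any alternative run. The limma adjusted p ranged up to 0.0886 for NM_131935, 0.144 for Nepl4 and 0.966 for NM_001110877 over the alternatives, which include the plain test. What caused these shifts was not tested.

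With the replicate number as a block, 0 RefSeq mRNA probes were called and 7 passed the methods' false discovery rate and fold change. Arrays of the same number correlated at 0.565, 0.591 and -0.371 in their deviations over 22955 probes. These values differ in sign, and whether shared numbers mark paired arrays cannot be told from them. On Top3b26 2, the dimmest array, weak signals were measured least well.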
